A study of Mus musculus with 28 samples.

Results

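Prostaglandins and leukotrienes are lipid mediators of inflammation, and the genes described here encode the enzymes that make them. The 9 genes chosen were Ptgs1, Ptgs2, Ptges, Hpgds, Tbxas1, Alox5ap, Alox5, Ltc4s and Lta4h. A gene was found by its symbol in the array annotation, and its brightest row over the 28 arrays stood for it. Of the 9 genes, 8 had an annotated row, each of them a single row, among 30693 named genes and 65956 transcript clusters tested. Ptgs1, which encodes the constitutive cyclooxygenase, carried no row in the annotation used and was not analysed here.

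Signal was measured on MTA 1.0 arrays in cortical brain tissue of mice aged 12 to 15 weeks. The 4 groups of 7 animals were mice labelled as knockout (KO) after controlled cortical impact (CCI), KO mice after sham, wild type (WT) mice after CCI and WT mice after sham. The knockout is of Rbm5, an RNA-binding protein that regulates splicing, and the labels give neither the allele nor the cells in which it was lost. CCI animals had a craniotomy over the left parietal cortex and an impact at 6 m/s to a depth of 1.2 mm, and sham animals had anaesthesia alone, so each injury change includes the craniotomy. Tissue was taken 48 h after injury, after perfusion with cold saline. Males numbered 3 in KO CCI, 4 in KO sham, 3 in WT CCI and 3 in WT sham. The tissue is a mixture of cells, so a change in the number of cells of a type and a change in RNA per cell cannot be told apart.

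Both branches start from arachidonic acid, a fatty acid that phospholipase A2 cuts from membranes. In the prostanoid branch the cyclooxygenases Ptgs1 and Ptgs2 make prostaglandin H2, which Ptges turns into prostaglandin E2, Hpgds into prostaglandin D2 and Tbxas1 into thromboxane A2. In the leukotriene branch Alox5, helped by the membrane protein Alox5ap, makes leukotriene A4, which Lta4h turns into leukotriene B4, an attractant of neutrophils, and Ltc4s into leukotriene C4, the parent of the cysteinyl leukotrienes. In brain, Ptgs2 is made by excitatory neurons and is induced by synaptic activity, whereas Hpgds, Tbxas1, Alox5ap and Alox5 are known mainly from microglia and other myeloid cells.

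RefSeq promoter windows on GRCm38.p6, 250 bases before to 50 after the annotated start, were given for 7 of the 8 measured genes, and Alox5ap had none in the table. Shown are the window of Ptgs2, because it holds letters of the cyclic AMP response element, and those of Hpgds, Tbxas1 and Ltc4s, which share the letters of an ETS and PU.1 site and whose signal rose with injury in WT. Letters in capitals are matches on either strand to 1 of 7 motifs, and motifs may overlap. The coordinates are chr1:150099781-150100080 on the plus strand for Ptgs2, chr6:65144681-65144980 on the minus strand for Hpgds, chr6:38918736-38919035 on the plus strand for Tbxas1 and chr11:50238483-50238782 on the minus strand for Ltc4s.
Ptgs2: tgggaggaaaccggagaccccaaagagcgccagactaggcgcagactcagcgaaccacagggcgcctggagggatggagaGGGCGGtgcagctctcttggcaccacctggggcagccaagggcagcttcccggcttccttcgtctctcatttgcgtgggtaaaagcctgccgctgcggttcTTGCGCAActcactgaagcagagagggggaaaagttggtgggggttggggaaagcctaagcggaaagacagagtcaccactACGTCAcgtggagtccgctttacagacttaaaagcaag
Hpgds: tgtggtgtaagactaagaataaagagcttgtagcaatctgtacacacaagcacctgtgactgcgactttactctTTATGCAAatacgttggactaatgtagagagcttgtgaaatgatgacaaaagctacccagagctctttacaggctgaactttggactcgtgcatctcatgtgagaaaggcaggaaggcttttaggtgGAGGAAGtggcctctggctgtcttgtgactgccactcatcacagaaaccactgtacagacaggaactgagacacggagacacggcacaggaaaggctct
Tbxas1: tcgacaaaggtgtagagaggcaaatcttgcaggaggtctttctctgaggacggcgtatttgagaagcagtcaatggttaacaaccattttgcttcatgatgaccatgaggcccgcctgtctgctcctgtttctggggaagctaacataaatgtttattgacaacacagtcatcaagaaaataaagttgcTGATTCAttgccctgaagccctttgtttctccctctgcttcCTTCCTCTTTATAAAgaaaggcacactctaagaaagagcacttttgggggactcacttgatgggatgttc
Ltc4s: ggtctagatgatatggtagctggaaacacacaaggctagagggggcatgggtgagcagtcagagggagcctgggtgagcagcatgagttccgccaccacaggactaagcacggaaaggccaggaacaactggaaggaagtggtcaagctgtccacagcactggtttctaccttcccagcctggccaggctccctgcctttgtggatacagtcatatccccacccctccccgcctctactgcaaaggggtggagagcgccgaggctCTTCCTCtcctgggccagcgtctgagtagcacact

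Among the 7 windows of measured genes, the ETS and PU.1 letters GAGGAAG were found in those of Hpgds (first base at position -49 from the start), Tbxas1 (-20, minus strand) and Ltc4s (16, minus strand). They occur in 13.6% of 32851 promoter windows of the same length. The Ptgs2 window held the core TGACGT of the cyclic AMP response element (position 13, minus strand, in 7.51% of windows), the C/EBP letters TTGCNNAA on both strands (position -69, 10.8%) and a GC box GGGCGG (position -170, 35.7%). Hpgds also held the C/EBP letters (position -176, minus strand), and Tbxas1 the AP-1 letters TGANTCA (position -61, 7.81%) and the TATA box TATAAA on both strands (positions -13 and -11, 13.6%), which overlap each other. Ptges and Alox5 held GC boxes only, and Lta4h held none of the 7 motifs. The NF-kB motif searched, found in 5.56% of windows, was in none of the 7. These are matches of letters, not measured sites.

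Values are log2 signal as deposited. Differences were tested with limma over all 65956 transcript clusters in a fit with 1 mean per group and a sex term, and a row was called at a Benjamini-Hochberg adjusted p under 0.05. All adjusted p-values below come from that fit unless another is named. Rbm5, the check of the genotype labels, ranged from 9.66 to 9.84 on the 14 KO arrays, below every WT array. The array medians lay between 5.79 and 5.90. The signal of Alox5 and Ltc4s lay below its array's median on all 28 arrays, that of Ptges on 25, that of Tbxas1 on all 14 sham arrays and that of Alox5ap on 1 WT sham array. Rows labelled as negative controls carried signal themselves, with array medians of 6.54 to 6.75 and 95th percentiles of 10.2 to 10.4. None of the 8 enzymes lay above that 95th percentile on any array. The mean signal of Ptges, Tbxas1, Alox5 and Ltc4s lay below the negative-control medians in all 4 groups, that of Tbxas1 between 5.63 in WT sham and 6.42 in WT CCI. That of Alox5ap lay below them in KO sham and WT sham, at 6.24 and 6.04. No enzyme was thus shown to be above background by these negative-control rows. The 23 control rows named as background had means of 2.63 to 6.59 over the 28 arrays. The group means of Ptgs2, Hpgds and Lta4h lay above that range in all 4 groups, and those of Alox5ap in KO CCI and WT CCI only. The group means of Ptges, Tbxas1, Alox5 and Ltc4s lay within it. Every change given is one of the deposited signal, not an exact fold change of RNA. Markers of neighbouring regions differed between arrays, with a mean log2 signal of 8 striatum markers of 7.08 to 9.92 in KO CCI, 7.23 to 8.34 in KO sham, 7.03 to 9.72 in WT CCI and 7.18 to 7.73 in WT sham. The 8 choroid plexus markers reached means of 7.66, 5.94, 7.92 and 7.77 in the same 4 groups. An earlier session on these data named 7 arrays as high in either (WT sham replicate 25, WT CCI replicates 13, 14, 16 and 35, KO CCI replicates 22 and 40). Values of the 8 enzymes without these arrays are given where they change a call. The other genes named below were not examined without them.

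Injury raised most of the measured enzymes in cortex. In KO cortex, 5 of the 8 were called higher with injury and none lower, where 8.43% of all transcript clusters were called higher and 8.27% lower. In WT cortex, 7 of the 8 were called higher and none lower, where 8.86% and 7.96% of all transcript clusters were called. The median log2 change of the 8 was 0.45 in KO and 0.48 in WT, and that of all transcript clusters was 0.012 in KO and -0.023 in WT. Alox5ap had the largest log2 change of the 8, 2.0 in KO and 2.43 in WT, followed by Hpgds with 1.09 and 1.33. Lta4h was called in neither genotype.

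**Figure D1:**
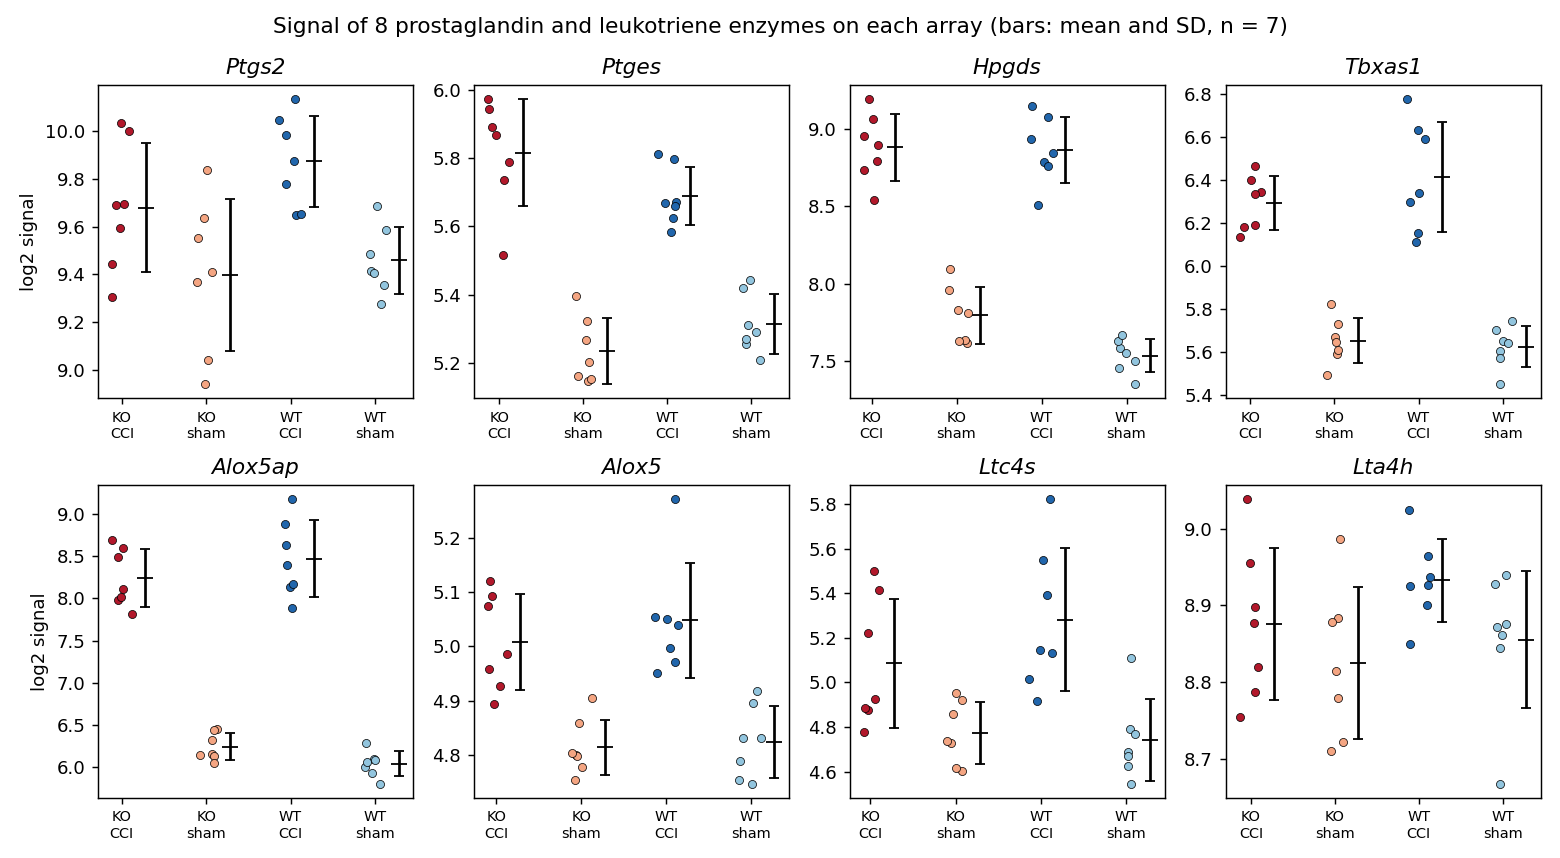
Log2 signal of the 8 measured enzymes on each of the 28 arrays (points), by group, with the group mean and SD beside them (n = 7 each); each panel has its own axis. Alox5ap, Hpgds, Tbxas1 and Ptges separate CCI from sham arrays with no overlap in either genotype, and Lta4h overlaps throughout. The share of all transcript clusters without overlap was not computed.

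Ptgs2, the inducible cyclooxygenase and entry enzyme of the prostanoid branch, had a signal of 9.30 to 10.03 (median 9.69) in KO CCI and 8.94 to 9.84 (median 9.41) in KO sham. In WT it ranged from 9.65 to 10.13 (median 9.88) after CCI and from 9.27 to 9.68 (median 9.41) after sham. The groups overlapped in both genotypes, with 2 of 7 KO CCI arrays above every KO sham array and 5 of 7 WT CCI arrays above every WT sham array. Its log2 change was 0.28 in KO (SE 0.12, adjusted p = 0.142) and 0.41 in WT (SE 0.12, adjusted p = 0.0184). The call in WT was lost without WT CCI replicate 34 (adjusted p = 0.0526), and in KO the change was called without KO sham replicate 31 (0.35, adjusted p = 0.0439). Within either run of title numbers the WT change was not called (log2 change 0.28, adjusted p = 0.112 in 1 to 24, and 0.60, adjusted p = 0.177 in 25 to 42).

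Ptgs2 is itself counted among the genes that neuronal activity induces. Of 10 other measured activity-dependent genes, 4 fell and none rose in KO, and 6 fell and none rose in WT, with median log2 changes of -0.39 and -0.59. The rest were not called, among them Fos (-0.038 in KO and -0.088 in WT) and Egr2 (0.031 in KO and -0.073 in WT). The mean log2 signal of these 10 genes ranged from 7.51 to 8.15 in KO CCI, 7.97 to 9.17 in KO sham, 7.74 to 8.10 in WT CCI and 8.13 to 8.98 in WT sham. Nr4a1, an activity-induced nuclear receptor, averaged 9.28 in KO CCI, 10.43 in KO sham, 9.31 in WT CCI and 10.77 in WT sham.

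**Figure D2:**
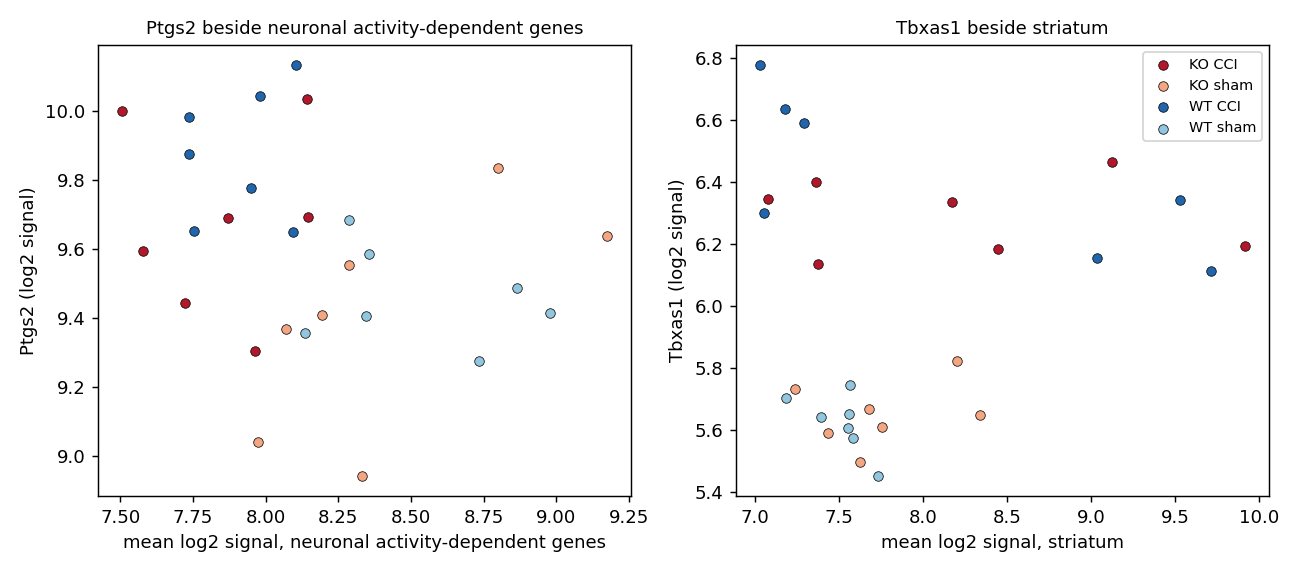
Left, Ptgs2 log2 signal (vertical) against the mean log2 signal of 10 activity-dependent genes (horizontal); right, Tbxas1 log2 signal against the mean log2 signal of 8 striatum markers; 1 point per array, coloured by group. The 7 WT CCI arrays lie left of all 7 WT sham arrays in the left panel, and the 3 highest Tbxas1 values in the right panel are WT CCI arrays with striatum means of 7.03 to 7.29.

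Of the terminal prostanoid enzymes, Hpgds, the haematopoietic prostaglandin D synthase, had a signal of 8.54 to 9.19 (median 8.89) in KO CCI and 7.62 to 8.09 (median 7.81) in KO sham. In WT it was 8.51 to 9.15 (median 8.84) after CCI and 7.36 to 7.67 (median 7.55) after sham. Every CCI array lay above every sham array of its genotype. How many of all transcript clusters separate in this way was not computed, here or for the enzymes below. The log2 change was 1.09 in KO (SE 0.096, adjusted p = 3.52e-09) and 1.33 in WT (SE 0.096, adjusted p = 5.19e-11).

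Tbxas1, the thromboxane synthase, had a signal of 6.14 to 6.47 (median 6.33) in KO CCI and 5.50 to 5.82 (median 5.65) in KO sham, and of 6.11 to 6.78 (median 6.34) in WT CCI and 5.45 to 5.75 (median 5.64) in WT sham. The groups did not overlap within either genotype. Its log2 change was 0.64 in KO (SE 0.085, adjusted p = 3.08e-06) and 0.79 in WT (SE 0.084, adjusted p = 5.66e-08). In title numbers 25 to 42 alone the KO change was 0.62 with an adjusted p of 0.0579.

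Ptges, the inducible microsomal prostaglandin E synthase, had a signal of 5.51 to 5.97 (median 5.87) in KO CCI and 5.15 to 5.40 (median 5.20) in KO sham. The corresponding WT values were 5.58 to 5.81 (median 5.67) after CCI and 5.21 to 5.44 (median 5.29) after sham. Here too the CCI and sham arrays of a genotype did not overlap. The log2 change was 0.58 in KO (SE 0.062, adjusted p = 1.06e-07) and 0.37 in WT (SE 0.062, adjusted p = 4.65e-05). It was the single measured enzyme with a larger fitted injury change in KO than in WT. In title numbers 25 to 42 alone the KO change was 0.40 (adjusted p = 0.0548), so the order of the genotypes turned there, with 0.47 in WT.

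In the leukotriene branch Alox5ap, the protein that presents arachidonic acid to 5-lipoxygenase, had a signal of 7.81 to 8.69 (median 8.11) in KO CCI and 6.05 to 6.45 (median 6.16) in KO sham. In WT it was 7.88 to 9.18 (median 8.40) after CCI and 5.80 to 6.28 (median 6.06) after sham. The lowest CCI array was thus more than 1 log2 unit above the highest sham array of its genotype. The log2 change was 2.0 in KO (SE 0.16, adjusted p = 5.5e-10) and 2.43 in WT (SE 0.16, adjusted p = 7.15e-12). The WT change was 2.30 in title numbers 1 to 24, 2.62 in 25 to 42 and 2.86 without the 7 arrays, and the KO change was 2.03, 1.95 and 1.97 under the same settings.

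Alox5, the 5-lipoxygenase itself, had a signal of 4.89 to 5.12 (median 4.99) in KO CCI and 4.75 to 4.90 (median 4.80) in KO sham. In WT the range was 4.95 to 5.27 (median 5.04) after CCI and 4.75 to 4.92 (median 4.83) after sham. All 7 WT CCI arrays and 6 of 7 KO CCI arrays lay above every sham array of their genotype. The log2 change was small, 0.19 in KO (SE 0.048, adjusted p = 0.00583) and 0.22 in WT (SE 0.048, adjusted p = 0.000997). It was not called in KO within title numbers 25 to 42 (0.18, adjusted p = 0.261) or in WT within 1 to 24 (0.12, adjusted p = 0.23).

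Ltc4s, the leukotriene C4 synthase, had a signal of 4.78 to 5.50 (median 4.93) in KO CCI and 4.60 to 4.95 (median 4.74) in KO sham, and of 4.92 to 5.82 (median 5.14) in WT CCI and 4.55 to 5.11 (median 4.69) in WT sham. The groups overlapped, with 3 of 7 KO CCI and 5 of 7 WT CCI arrays above every sham array of their genotype. Its log2 change was 0.32 in KO (SE 0.13, adjusted p = 0.0954) and 0.54 in WT (SE 0.13, adjusted p = 0.00272). In title numbers 25 to 42 the WT change was 0.29 (adjusted p = 0.297).

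Lta4h, the leukotriene A4 hydrolase, had a signal of 8.75 to 9.04 (median 8.88) in KO CCI, 8.71 to 8.99 (median 8.81) in KO sham, 8.85 to 9.02 (median 8.93) in WT CCI and 8.67 to 8.94 (median 8.87) in WT sham. All 4 groups overlapped. Its log2 change was 0.051 in KO (95% interval -0.056 to 0.16, adjusted p = 0.604) and 0.077 in WT (-0.029 to 0.18, adjusted p = 0.377).

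**Figure D3:**
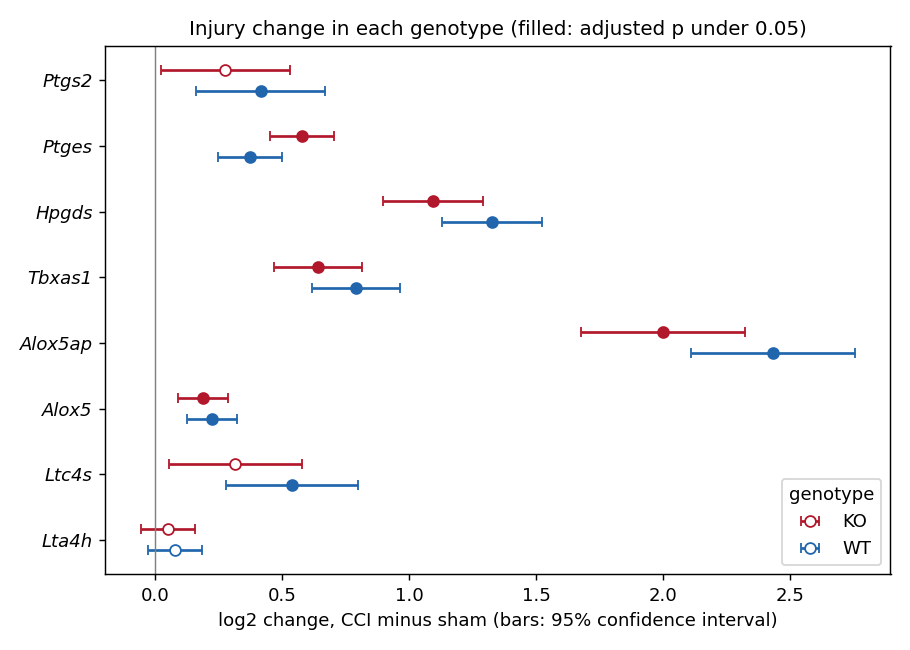
Injury change (CCI minus sham, log2 scale) of the 8 measured enzymes in KO (red, upper) and WT (blue, lower), with 95% confidence intervals from limma; filled points had an adjusted p under 0.05. Alox5ap and Hpgds lie farthest from 0 in both genotypes, at 2.0 and 1.09 in KO and 2.43 and 1.33 in WT.

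Other genes of the pathway were taken from 6 lists with 61 genes, of which 55 were measured. In KO, 6 of the 55 rose with injury, 9 fell and 40 were not called, and in WT 13 rose, 5 fell and 37 were not called. The shares called higher and lower were 10.9% and 16.4% in KO, where 8.43% and 8.27% of all transcript clusters were called, and 23.6% and 9.09% in WT, against 8.86% and 7.96%. The share higher in KO and the share lower in WT were thus near those of all transcript clusters. Among 21 genes of arachidonate release, 2 rose and 5 fell in KO, and 4 rose and 3 fell in WT. Pla2g4a, the cytosolic phospholipase A2 that releases arachidonic acid, rose by a log2 change of 1.03 in KO (SE 0.089, adjusted p = 2.79e-09) and 1.19 in WT (SE 0.089, adjusted p = 9.39e-11). Its mean signal was 7.93 in KO CCI, 6.90 in KO sham, 8.14 in WT CCI and 6.95 in WT sham. Plcg2, a phospholipase C of immune cells, had log2 changes of 0.62 and 0.75. The falls were smaller. In KO, Dagla, which makes the endocannabinoid 2-arachidonoylglycerol, and Pla2g4e had log2 changes of -0.32 and -0.30, and Mgll, which breaks 2-arachidonoylglycerol down to arachidonic acid, one of -0.27. In WT, Pla2g4e, the 2-arachidonoylglycerol hydrolase Abhd6 and the anandamide hydrolase Faah had log2 changes of -0.29, -0.25 and -0.25, and Abhd12 rose by 0.22.

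Of 5 other prostanoid synthases, Ptgds alone changed. This prostaglandin D synthase of meninges, choroid plexus and oligodendrocytes makes the same product as Hpgds, and it fell by 1.07 on the log2 scale in KO (SE 0.21, adjusted p = 0.000596) and fell by 0.85 in WT (SE 0.21, adjusted p = 0.00461). Its mean signal was 13.60 in KO CCI, 14.64 in KO sham, 13.96 in WT CCI and 14.81 in WT sham. Hpgds and Ptgds thus moved in opposite directions in both genotypes. Of 8 leptomeningeal fibroblast markers, Ogn averaged 8.09 in KO CCI, 9.20 in KO sham, 8.54 in WT CCI and 9.59 in WT sham. Igf2 and Slc6a13 also had lower means after CCI in both genotypes, whereas Dcn, Lum, Col1a1, Col1a2 and Bgn had higher ones. Dcn averaged 9.42, 8.20, 9.33 and 8.29 in the same 4 groups. The part of meningeal cells in the fall of Ptgds was not tested. Of 6 other lipoxygenases none rose, while Alox12b and Alox8, known from skin, fell in KO (log2 changes of -0.53 and -0.28) and Alox8 fell in WT (-0.26).

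Receptors changed little. Of 9 prostanoid receptors, Ptger3, a prostaglandin E2 receptor, fell by 0.30 in KO (adjusted p = 0.0385) and Ptger4, another, rose by 0.19 in WT (adjusted p = 0.00292), and the other 8 in each genotype were not called. Of 3 measured leukotriene receptors, Cysltr1, a receptor of cysteinyl leukotrienes, rose by 0.41 in KO (adjusted p = 0.000467) and 0.34 in WT (adjusted p = 0.00272). Of 11 genes of transport and breakdown, 3 rose in KO and 7 in WT, and none fell. Hpgd, which inactivates prostaglandins, had the largest rise, with log2 changes of 0.61 in KO (adjusted p = 1.3e-07) and 0.61 in WT (adjusted p = 5.66e-08). Ptgr1, a prostaglandin and leukotriene B4 reductase, rose by 0.21 and 0.26, Dpep2, a leukotriene D4 dipeptidase, rose by 0.20 in KO, and Cbr3, a carbonyl reductase, rose by 0.29 in WT.

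**Figure D4:**
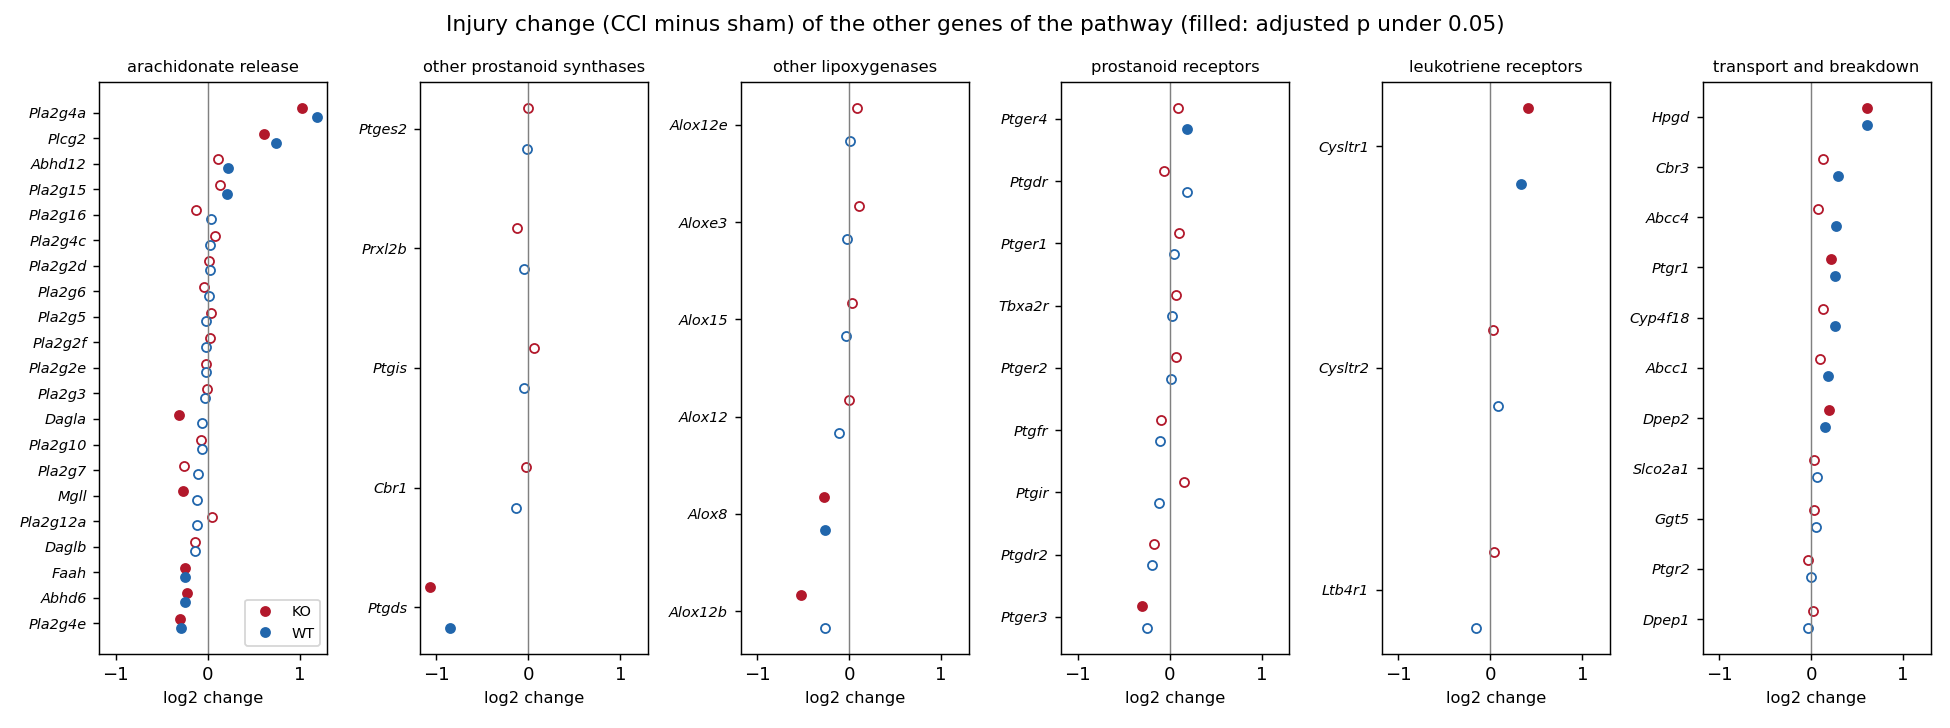
Injury change (CCI minus sham, log2 scale) of the 55 other measured genes of the pathway in KO (red, upper point) and WT (blue, lower point), by list; filled points had an adjusted p under 0.05. Pla2g4a and Plcg2 lie farthest right among the genes of arachidonate release, and Ptgds lies farthest left of the 55 in both genotypes, at -1.07 in KO and -0.85 in WT.

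Between genotypes, none of the 55 pathway genes was called after CCI or for its injury change. Of all transcript clusters, 0.653% and 0% were called in these comparisons. After sham Alox12b was 0.42 higher in KO (adjusted p = 0.0286), which is 1.82% of the 55 against 1.28% of all transcript clusters. Over both procedures Alox12b was 0.29 higher in KO (adjusted p = 0.0149) and Alox8 was 0.20 lower (adjusted p = 0.00819). Each is 1.82% of the 55, where 3.16% of all transcript clusters were called in either direction. Counts this small are near those shares.

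Markers of several cell types moved with these enzymes. The mean log2 signal of 9 homeostatic microglia markers was 7.93 to 8.73 in KO CCI, 7.52 to 7.77 in KO sham, 7.88 to 8.83 in WT CCI and 7.43 to 7.65 in WT sham, with 5 called higher and 1 lower in KO and 6 higher in WT. For 10 monocyte and border macrophage markers the ranges were 7.10 to 7.70, 6.19 to 6.41, 7.21 to 7.85 and 6.23 to 6.45 in the same 4 groups, with 8 higher in KO and 9 in WT. Of 9 phagocyte activation markers 8 were higher in KO and 7 in WT, and of 10 neutrophil markers 6 in each genotype. Their ranges were 7.90 to 8.54 in KO CCI, 6.97 to 7.27 in KO sham, 7.88 to 8.63 in WT CCI and 6.95 to 7.11 in WT sham for the phagocyte list, and 5.46 to 5.97, 5.02 to 5.13, 5.57 to 6.31 and 5.07 to 5.73 for the neutrophil list. All 8 reactive astrocyte markers rose in both genotypes, and their mean was 10.59 to 11.30 in KO CCI, 7.24 to 8.25 in KO sham, 10.34 to 11.25 in WT CCI and 7.22 to 7.47 in WT sham. Of 7 endothelial markers, Pecam1, Cdh5 and Emcn rose in both genotypes, Cldn5 rose in WT, and Slco1a4, a transporter of the blood-brain barrier, fell in both. Their mean was 8.62 to 8.95 in KO CCI, 8.38 to 8.70 in KO sham, 8.90 to 9.29 in WT CCI and 8.54 to 8.80 in WT sham. The part of these cells in the changes above was not tested.

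Mast cells and platelets are further known sources of Hpgds, Ltc4s and Tbxas1. None of the 8 mast cell markers rose in either genotype, and the stem cell factor receptor Kit, which neurons also express, fell in both. The list's mean, Kit included, lay between 4.76 and 4.93 over all groups, below the lowest array median. Of 6 platelet markers none was called in either genotype, and their mean lay between 5.36 and 5.69 in all but 1 array, WT sham replicate 1 at 6.71. The 7 measured excitatory neuron markers had a mean of 10.87 to 11.37 in KO CCI and 11.46 to 11.71 in KO sham, and of 10.84 to 11.31 in WT CCI and 11.41 to 11.54 in WT sham, with 5 lower in KO and 4 in WT.

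The enzymes were then compared between genotypes. None of the 8 was called after CCI, where 0.653% of all transcript clusters were called, after sham (1.28%) or over both procedures (3.16%). At an unadjusted limma p under 0.05 there was 1 of the 8 after CCI, 1 after sham and 0 over both, where 9.80%, 11.1% and 12.8% of all transcript clusters had one. A count of 1 among 8 is near those shares. After CCI the log2 differences, KO minus WT, ranged from -0.23 for Alox5ap (95% interval -0.55 to 0.095) to 0.13 for Ptges (0.0011 to 0.25, adjusted p = 0.503). Ptgs2 and Ltc4s had differences of -0.19 and -0.20. Those of Lta4h and Alox5, -0.056 and -0.040, had intervals of -0.16 to 0.050 and -0.14 to 0.058.

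After sham the largest difference was that of Hpgds, 0.25 higher in KO (SE 0.096, adjusted p = 0.267). All 7 KO sham arrays lay above the WT sham median and 4 of 7 above every WT sham array. An exact two-sided permutation test, without a sex term and unadjusted, was run on each measured enzyme. After sham the exact permutation test gave p = 0.00699 for Hpgds and p = 0.0315 for Alox5ap. The log2 difference of Alox5ap was 0.21 (limma adjusted p = 0.707). For the other enzymes the exact permutation test gave p-values from 0.134 for Ptges to 0.76 for Alox5. The 2 smallest p-values are thus picked from those of all enzymes tested. The exact test was not run on the other transcript clusters, so their share at p under 0.05 is not known for it. The difference in Hpgds was 0.29 within title numbers 1 to 24 and 0.19 within 25 to 42. Homeostatic microglia markers had a mean of 7.66 ± 0.088 in KO sham and 7.50 ± 0.072 in WT sham (SD, n = 7), and reactive astrocyte markers one of 7.73 ± 0.34 and 7.34 ± 0.097. The part of these cells in the difference was not tested.

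Tbxas1 after CCI differed by a log2 value of -0.12 (SE 0.084, adjusted p = 0.69) over all arrays. Without the 7 arrays the difference was -0.38 (SE 0.076) and was called (adjusted p = 0.0346). Tbxas1 was the 1 enzyme called in a genotype comparison after CCI under that setting, where 187 of 65956 transcript clusters were called. Over both procedures the Tbxas1 difference was -0.047 (adjusted p = 0.829) with all arrays and -0.20 (SE 0.048, adjusted p = 0.0419) without the 7, where 961 transcript clusters were called. The 5 remaining KO CCI arrays lay between 6.14 and 6.40 and the 3 remaining WT CCI arrays between 6.59 and 6.78. Those left out were at 6.19 and 6.47 in KO CCI and between 6.11 and 6.34 in WT CCI, so more WT than KO arrays were removed. Of the KO CCI arrays kept, replicates 23 and 42 still had striatum means of 8.45 and 8.17, whereas the 3 WT CCI arrays kept had means of 7.03, 7.17 and 7.29. Within title numbers 1 to 24 the difference was -0.0093, and within 25 to 42 it was -0.27 (adjusted p = 0.703).

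No enzyme was called when the KO injury change was set against the WT one, and neither was any transcript cluster (0% of 65956, with 4097 at an unadjusted limma p under 0.05). Among the 8 enzymes 1 had an unadjusted p under 0.05, as did 6.21% of all transcript clusters. Ptges had a difference, KO minus WT, of 0.20 (95% interval 0.024 to 0.38, adjusted p = 0.779), and Alox5ap one of -0.43 (-0.89 to 0.025, adjusted p = 0.813). Those of Hpgds, Ltc4s, Tbxas1, Ptgs2, Alox5 and Lta4h were -0.23, -0.22, -0.15, -0.14, -0.036 and -0.026. The interval of Ptges reached 0.38, against its injury changes of 0.58 in KO and 0.37 in WT. That of Alox5ap reached -0.89, against 2.0 in KO and 2.43 in WT. A difference that missed the threshold does not show that the genotypes responded alike.

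Sex was examined because both sexes were present in every group. None of the 8 enzymes was called for sex over all groups, where 0.487% of transcript clusters were called, and none had an unadjusted limma p under 0.05. The log2 differences, female minus male, lay between -0.066 and 0.042. When the injury change of females was set against that of males, 0.0106% of transcript clusters were called, and again none of the 8, with 1 at an unadjusted p under 0.05, as had 6.15% of all transcript clusters. That was Ptgs2, whose injury change was 0.38 larger in females (SE 0.17, adjusted p = 0.794). Its mean was 9.83 ± 0.22 in 4 female and 9.48 ± 0.20 in 3 male KO CCI mice and 9.35 ± 0.30 in 3 female and 9.44 ± 0.37 in 4 male KO sham mice. In WT it was 9.92 ± 0.12 in 4 females and 9.81 ± 0.28 in 3 males after CCI, and 9.36 ± 0.064 in 4 females and 9.59 ± 0.099 in 3 males after sham (SD).

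Array-to-array variation within groups was shared by some of the enzymes. After group means and sex had been removed, the 28 pairs of enzymes were correlated over the 28 arrays, with permutation p-values adjusted over the 28 pairs. Hpgds and Tbxas1 varied together (Pearson r = 0.713, adjusted permutation p = 0.00056, Spearman rho = 0.691, adjusted permutation p = 0.00266), and r was 0.685 without the 2 arrays farthest from the median of Hpgds. Within title numbers 1 to 24 and 25 to 42 it was 0.676 and 0.802. Tbxas1 and Alox5ap did so as well (r = 0.694, adjusted permutation p = 0.00084, rho = 0.64, adjusted permutation p = 0.00336), with r = 0.581 without the 2 farthest arrays and 0.586 and 0.832 within the runs. Over the 14 injured arrays these 2 pairs had r = 0.879 and 0.827, and over the 14 sham arrays 0.282 and 0.0204, a contrast that was not tested. In WT CCI the 4 arrays named above as high in striatum or choroid plexus markers lay below the other 3. For Hpgds the ranges were 8.51 to 8.84 against 8.93 to 9.15. They were 6.11 to 6.34 against 6.59 to 6.78 for Tbxas1, and 7.88 to 8.40 against 8.64 to 9.18 for Alox5ap. The 2 such KO CCI arrays did not lie below the other 5. Correlations without these arrays were not computed, and the part of tissue sampling was not tested.

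Alox5 and Ltc4s varied in opposite directions (r = -0.609, adjusted permutation p = 0.00457, rho = -0.661, adjusted permutation p = 0.00266), with r = -0.54 without the 2 farthest arrays, -0.519 and -0.642 within the runs, and -0.624 and -0.595 over injured and sham arrays. Both rows lay below the array median on every array. Hpgds and Ltc4s had r = 0.502 (adjusted permutation p = 0.0435) but rho = 0.494 (adjusted permutation p = 0.0573), and no other pair had an adjusted p under 0.05.

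**Figure D5:**
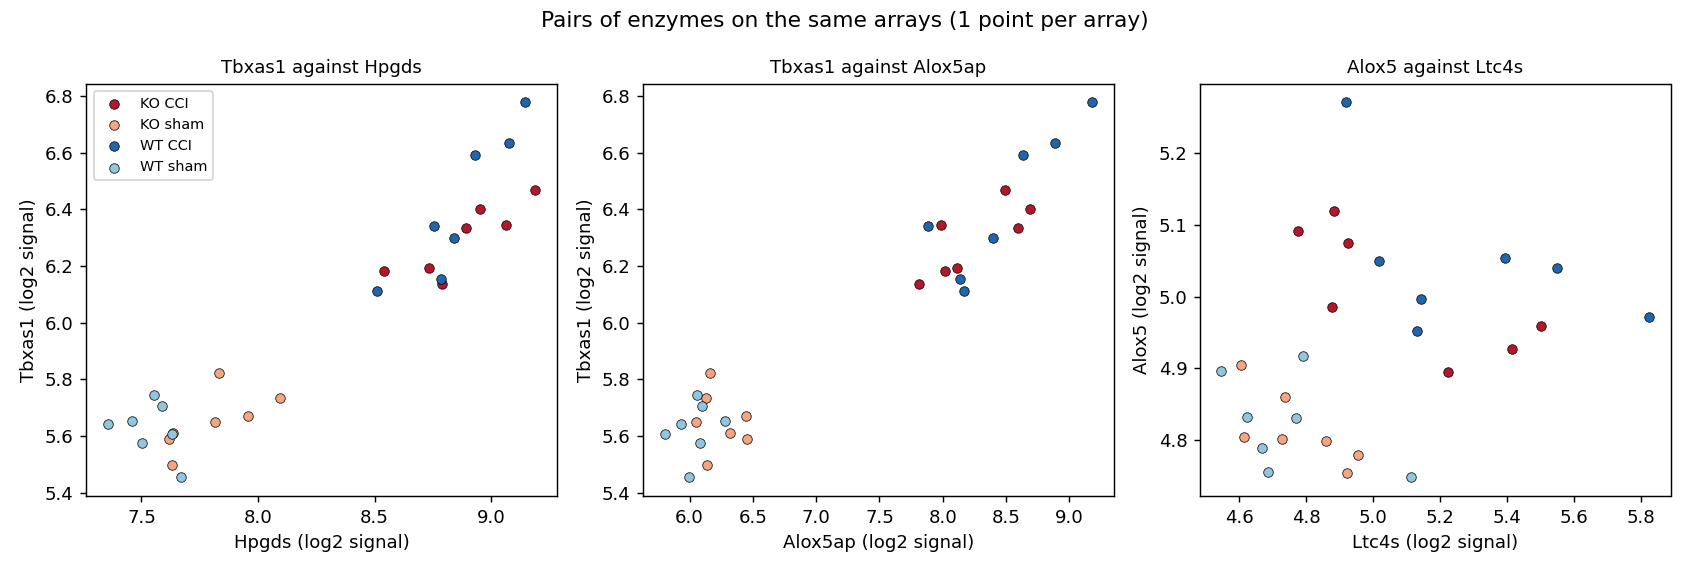
Log2 signal of Tbxas1 against Hpgds, Tbxas1 against Alox5ap and Alox5 against Ltc4s, 1 point per array, coloured by group. Among the injured arrays Tbxas1 increases with Hpgds and with Alox5ap (r = 0.879 and 0.827 after group means and sex were removed), and Alox5 decreases with Ltc4s (r = -0.624). Arrays high in striatum or choroid plexus markers are included.

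For the 5 enzymes called in both genotypes, the genes most like them were sought among 18171 named genes by Pearson r over the 28 arrays after group means and sex had been removed, as a description. Predicted and clone-named genes, small noncoding RNAs and olfactory and vomeronasal receptors, recognised by name, were left out of the 18171. Tbxas1 was most like Dock2, a migration factor of leukocytes (r = 0.904), Tlr7, a Toll-like receptor (0.881), and Tgfb1 (0.87). Hpgds was most like Cx3cr1, the fractalkine receptor of microglia (0.851), Wls (0.834) and Man1c1 (0.827). Alox5ap was most like Lcp1, an actin-bundling protein of leukocytes (0.856), Npl (0.853) and Fyb, a T cell and myeloid adapter (0.851). Ptges was most like Gpld1 (0.783), Zfp458 (0.751) and Pik3ip1 (0.694), and Alox5 was most like Stfa2l1 (0.816), Sphk1 (0.78) and Tnni3 (0.767). The arrays share a tissue sample and a chip for all genes, and the highest of 18171 values is high by selection.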

How the data were processed

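Log2 signal of 28 MTA 1.0 arrays was used as the authors deposited it, in a table of 72688 rows. The scale was read from the values (2.17 to 19.93), and the software, background correction and normalization are not given in the sources used here. Biotin-labelled cDNA was made from 100 ng of total RNA, per the labels' protocols. Control rows (6732) were left out, and the 5222 labelled negative had array medians of 6.54 to 6.75 and were not used as a floor. Names came from the platform annotation, updated through RefSeq GRCm38.p6. Groups and sex came from the labels. The labels do not say how animals were assigned to the title numbers, whose runs, 1 to 24 and 25 to 42, each hold all 4 groups.

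limma 3.58.1 in R 4.3.3 (lmFit, eBayes) was fitted to all rows, with 8 means, 1 per group and sex, where injury changes were compared between the sexes. Tested on simulated data of 65956 rows, it recovered known changes, though the share recovered at each size is not given here. The smallest log2 change added was 0.25, and variation shared between rows was not simulated. The p-values measure the spread between these animals, with a precision limited by 7 arrays per group. Alternatives were no sex term, the run as covariate or alone, only the arrays compared, quantile normalization, median centring, a variance trend, array weights, brightness and annotation filters, a stricter threshold, an exact permutation test, and leaving out the 7 arrays or each array. Named were the 8 enzymes, up to 3 called genes per list and direction, and the 3 genes most like an enzyme called in both genotypes. The genes, lists and motifs were chosen with earlier results of these data known. Figures were drawn with Python 3.11.15 and matplotlib 3.10.9.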

Additional observations from a re-analysis of the deposited data

Results flagged for a closer look

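In 32 groups of 7 arrays, 3 had 1 array farther from the rest than Dixon's 95% criterion allows, and chance alone flags about 1 in 20 groups. Alox5 in WT CCI replicate 35 was at 5.27, with the next array at 5.05. That array also had the highest neutrophil marker mean of its group (6.31) and the highest striatum mean (9.72), and without it the WT injury change of Alox5 was 0.19. Ltc4s in WT sham replicate 25 was at 5.11, with the next array at 4.79, and that array had a choroid plexus mean of 7.77. Lta4h in WT sham replicate 3 was at 8.67, with the next array at 8.84.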

How the results depend on the processing

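Of the 5 enzymes called in both genotypes, Hpgds and Alox5ap kept their calls within each run of title numbers, without the 7 arrays and without any single array. No called injury change reversed under any setting run. Enzymes called for injury numbered 3 in KO and 4 in WT among the brighter rows, where Ptges, Alox5 and Ltc4s were not tested, and 2 in KO within title numbers 25 to 42. The share of all brighter rows called is not given here. Enzymes called for injury numbered 5 to 6 in KO and 6 to 7 in WT as single arrays were left out. Without the 7 arrays 1 enzyme, Tbxas1, was called between genotypes after CCI, where 187 of 65956 transcript clusters were called. Under the same setting 1, again Tbxas1, was called over both procedures (-0.20), where 961 transcript clusters were called. With all arrays, 2 enzymes had an unadjusted exact permutation p under 0.05 after sham, a test not run on the other transcript clusters. For these the cause was not tested. Uncalled values changed sign as follows. With quantile normalization the genotype difference after sham was 0.027 for Alox5 and the difference of injury changes 0.0058 for Lta4h. With centred arrays the genotype difference was -0.0033 for Hpgds after CCI and 0.012 for Alox5 after sham. In title numbers 1 to 24 Ptgs2 after sham was 0.031, Tbxas1 over both procedures 0.015 and the Alox5 difference of injury changes 0.065. In 25 to 42 the Lta4h injury change in KO was -0.030, Hpgds after CCI -0.056, Ptges, Alox5 and Ltc4s after sham 0.081, 0.11 and -0.18, and the Ptges difference of injury changes -0.065. Without the 7 arrays Hpgds after CCI was -0.20, Tbxas1 after sham -0.0093 and the Alox5 difference of injury changes 0.00059. Leaving out 1 array at a time, the genotype difference ranged from -0.039 to 0.070 for Hpgds after CCI and, after sham, from -0.13 to 0.018 for Ptgs2, -0.0042 to 0.059 for Tbxas1, -0.021 to 0.015 for Alox5 and -0.012 to 0.096 for Ltc4s. The difference of injury changes ranged from -0.057 to 0.0013 for Alox5 and -0.058 to 0.0042 for Lta4h.

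Over all transcript clusters, calls for injury in KO numbered 2567 within title numbers 25 to 42, against 11017 over all arrays, and in WT 5900 and 5217 within the 2 runs, against 11094. Calls between genotypes after CCI numbered 131 with only the arrays compared, 125 and 15 within the runs and 187 without the 7 arrays, against 431. After sham they numbered 472 and 5 within the runs and 1279 with array weights, against 847. Each enzyme had 1 row, so other rows of a gene gave no value. No paired analysis was possible because replicate numbers are not shared between groups. Signal not shown to be above the negative-control rows limits what can be said of all 8 enzymes. It does so most for Alox5, Ltc4s, Ptges and Tbxas1, whose group means also lay within the range of the background rows.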
